A study of Mus musculus with 3 samples.

Results

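The genes described here are 10 markers of the liver sinusoidal endothelial cells (LSECs), namely Stab1, Stab2, Lyve1, Clec4g, Fcgr2b, Kdr, Flt4, Oit3, Pecam1 and Cdh5. They were taken as a named list, and every one of them was read well above background on all 3 arrays, by 11 probes in all, among 13626 named genes so measured. Each array held Cy3-labelled RNA of 1 liver preparation of the c57BL6/J strain, taken 2 days after a plasmid for human YAP had been pushed into the tail vein by hydrodynamic injection. The plasmids coded for wild-type YAP (WT) or for the active mutants YAP (1SA) and YAP (2SA), which the Hippo pathway restrains less. Each form of YAP was represented by 1 array, so no difference had a replicate check, no test was run, and construct and liver cannot be told apart. By the study's methods the vector carried an Afp enhancer and an albumin promoter, which act in hepatocytes, so that LSECs were not the cells meant to express YAP, and only part of the hepatocytes took up the plasmid. All 3 livers had been through the injection, which itself injures liver cells, and no uninjected liver was among these arrays. The labels did not give the age or sex of the mice or the number of animals behind an array, and the study's methods give young adult males for these injections.

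LSECs line the hepatic sinusoids, the capillaries between the portal and central veins. They have open pores and no continuous basement membrane, and they clear waste molecules from blood through scavenger and Fc receptors. They also respond to VEGF made by neighbouring cells and send signals back to hepatocytes, and they can lose their specialised state, a change called capillarisation, when the liver is injured. The study asked how the state of the LSECs bears on the fate of hepatocytes with active YAP. The values below answer the narrower question of whether LSEC transcripts differed between livers given the 3 forms of YAP.

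None of the 10 endothelial marker genes differed by 2-fold in any of the 3 comparisons. Of all genes, 0.727% were past 2-fold upward and 1.14% downward in YAP (1SA) against WT, 1.12% and 0.543% in YAP (2SA) against WT, and 2.47% and 1.12% in YAP (2SA) against YAP (1SA). Clec4g was the one member past 1.5-fold, being lower in YAP (2SA) than in either other liver. At that threshold 3.79% of all genes were higher and 3.02% lower in YAP (2SA) than in WT, and 6.99% were higher and 4.56% lower than in YAP (1SA). In YAP (1SA) against WT, 0 members passed 1.5-fold, where 3.08% of all genes were higher and 4.67% lower. Values are intensities in arbitrary units as scanned, and differences are differences of log2 intensity after each array was divided by its own 75th percentile. Levels of different genes come from different probes and were not compared.

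The error available was that between repeated spots of a probe on 1 array. The difference expected from spots alone had an SD of 0.08 for bright probes in both comparisons with WT (intensity 1000 and over), 0.10 for probes between 100 and 1000, and 0.24 for dimmer probes, and 2 times this SD is called the spot limit. For a probe with 10 spots the limit came from its own spots. It does not cover the spread between animals. By this limit 2 members were lower in YAP (1SA) than in WT and 0 higher, where 17.2% of all genes were lower and 16.0% higher. In YAP (2SA), 3 members were lower and 2 higher than in WT, where 18.7% and 14.9% of all genes were. Between the mutants, 3 were lower and 3 higher in YAP (2SA), where 24.6% and 20.5% of all genes were. Kdr entered these counts by its brighter probe, which had 1 spot. Its other probe, with 10 spots, was below WT beyond its limit in both mutants (-0.07 and -0.08) and was not counted.

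**Figure D1:**
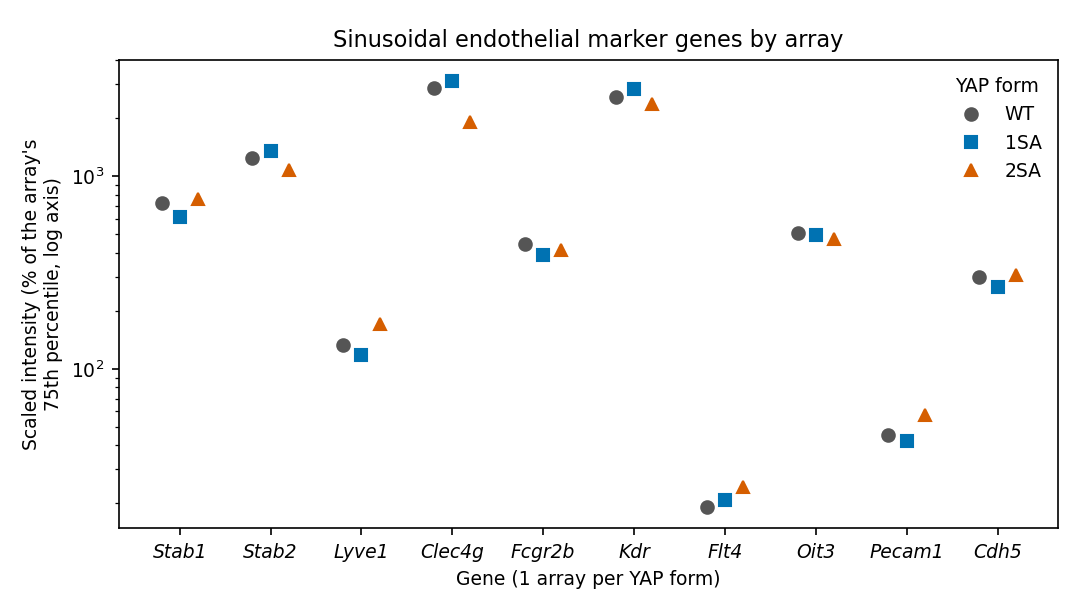
Scaled intensity of the 10 sinusoidal endothelial marker genes (percent of the array's 75th percentile, log axis) on the WT, YAP (1SA) and YAP (2SA) arrays, 1 point per array. For most genes the 3 points lie close together, and for Clec4g the YAP (2SA) point (1905%) lies below WT (2873%) and YAP (1SA) (3113%).

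The first group comprised the scavenger and lectin receptors by which LSECs take up material from blood. Stab1 and Stab2 encode the stabilins, a pair of related receptors that bind hyaluronan, modified lipoproteins and dying cells. Clec4g encodes a C-type lectin of the sinusoidal surface. Promoter sequences of these 3 genes are shown because the pair of stabilins differed in direction and because Clec4g gave the largest difference of any member. They are the 250 bases before the start of each gene (RefSeq, GRCm38.p6), 5′ to 3′ on the strand of the gene. Stab1 lies at chr14:31168642-31168891, Stab2 at chr10:87007943-87008192 and Clec4g at chr8:3720652-3720901, each on the minus strand. Capitals mark the letters AGGAAG on either strand, a sequence bound by ETS factors of endothelial cells. Other sequences that these factors bind were not searched for and are not marked.
Stab1: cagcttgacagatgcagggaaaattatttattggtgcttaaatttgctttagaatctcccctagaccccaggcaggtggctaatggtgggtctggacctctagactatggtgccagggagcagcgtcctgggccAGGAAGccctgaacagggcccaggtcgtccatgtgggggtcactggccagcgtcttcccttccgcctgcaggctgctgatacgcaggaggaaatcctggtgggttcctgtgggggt
Stab2: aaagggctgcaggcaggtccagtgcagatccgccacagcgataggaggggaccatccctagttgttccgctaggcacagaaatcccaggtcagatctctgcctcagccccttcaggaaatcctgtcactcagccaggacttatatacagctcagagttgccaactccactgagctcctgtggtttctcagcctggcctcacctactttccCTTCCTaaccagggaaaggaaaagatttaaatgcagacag
Clec4g: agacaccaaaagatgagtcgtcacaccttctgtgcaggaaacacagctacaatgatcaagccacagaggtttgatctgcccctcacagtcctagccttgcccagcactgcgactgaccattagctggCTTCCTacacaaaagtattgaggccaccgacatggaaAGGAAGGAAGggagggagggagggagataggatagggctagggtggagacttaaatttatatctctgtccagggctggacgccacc
Of the 10 members, 6 had a promoter in the sequence table, and these 3 held the letters AGGAAG. They lay once in Stab1, with the first base 116 bases before the start, and once in Stab2, 40 bases before it on the opposite strand. In Clec4g they lay 123 bases before it on the opposite strand, and 86 and 82 bases before it as overlapping copies. Among the 32851 promoters of the table, 29.5% held these letters in the same window. The letters GGAATG of TEAD factors, the DNA-binding partners of YAP, and AGATAA of GATA factors were also searched on both strands, and were in none of the 6 windows, against 12.6% and 9.99% of all promoters. These matches describe the sequence only.

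Stab1 had an intensity of 2104 on the WT array, 1684 on YAP (1SA) and 2421 on YAP (2SA). After scaling it was lower in YAP (1SA) than in WT (-0.24), beyond its spot limit of 0.15, and close to WT in YAP (2SA) (0.07). Stab2 had 3601, 3717 and 3432. It was within its spot limit of WT in YAP (1SA) (0.12) and below WT in YAP (2SA) (-0.21). The stabilins thus ran in opposite order over the mutants, with Stab1 0.31 higher and Stab2 0.33 lower (a difference of -0.33) in YAP (2SA) than in YAP (1SA).

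Clec4g had an intensity of 8356 on WT, 8584 on YAP (1SA) and 6086 on YAP (2SA). It differed from WT by 0.12 in YAP (1SA), within its spot limit, and by -0.59 in YAP (2SA), where it stood at 0.663 of its scaled WT level. Only 2.87% of all genes had a lower difference in that comparison. Between the mutants the difference was -0.71. The YAP (2SA) value lay at the edge of the 1.5-fold threshold and passed it no longer under quantile normalisation, the array median, normexp or the series matrix values, under which it was between -0.58 and -0.56.

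Lyve1 encodes a hyaluronan receptor shared by LSECs, lymphatic vessels and some macrophages. Its intensity was 386 on WT, 325 on YAP (1SA) and 548 on YAP (2SA). It was the highest of the members in YAP (2SA) against WT (0.37, or 1.29-fold), with 92.1% of all genes having a lower difference, and by normexp background correction the difference was 0.24. It was 0.54 higher than in YAP (1SA). Against WT the YAP (1SA) value (-0.17) was within the spot limit of 0.21. Fcgr2b encodes the inhibitory Fc receptor for IgG, abundant on LSECs and carried also by B cells and macrophages. Its probe had 10 spots on each array, with a mean intensity of 1297 on WT, 1071 on YAP (1SA) and 1321 on YAP (2SA). The SD over spots was 0.08, 0.07 and 0.12 on the log2 scale. Scaled, Fcgr2b was below WT in both mutants, at -0.20 ± 0.03 (SE over 10 spots per array) in YAP (1SA) and -0.11 ± 0.05 in YAP (2SA), both beyond its spot limits of 0.07 and 0.09. On the YAP (2SA) array 1 of the 10 spots, at 1098.5, lay apart from the rest.

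**Figure D2:**
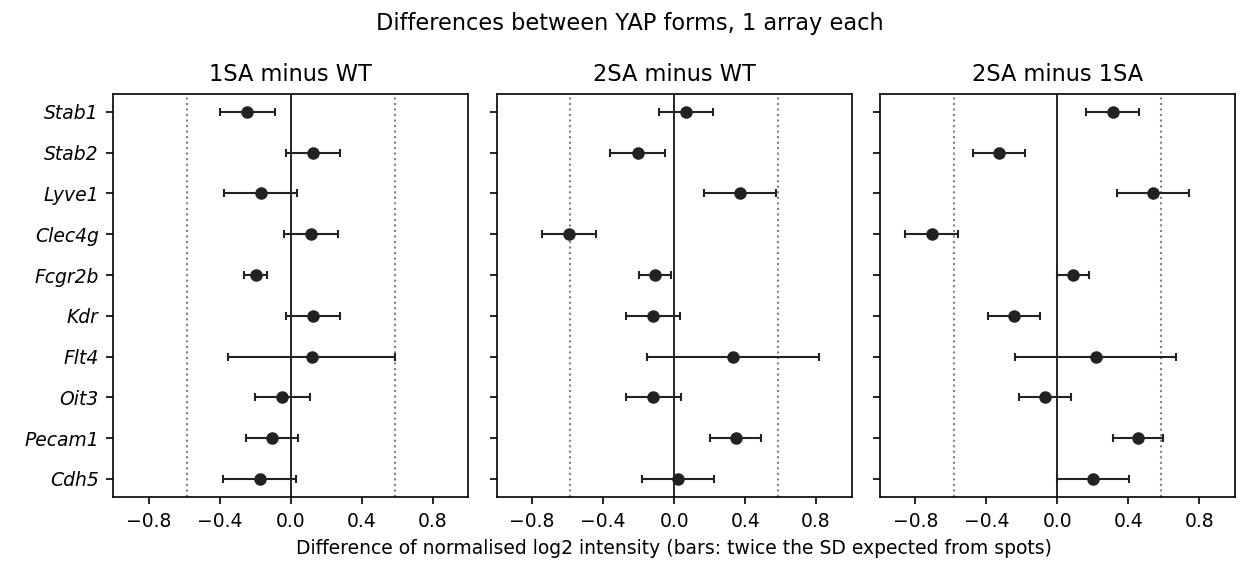
Difference of normalised log2 intensity of each marker gene for YAP (1SA) minus WT, YAP (2SA) minus WT and YAP (2SA) minus YAP (1SA), with 1 array per form. Bars reach 2 times the SD expected from spots and dotted lines mark 1.5-fold; Clec4g is the point at or past a dotted line in both comparisons of YAP (2SA).

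The second group held the receptors for VEGF, which keeps LSECs alive and porous. Kdr (VEGF receptor 2) was read by a pair of probes. The brighter one, with 1 spot, had an intensity of 7528 on WT, 7787 on YAP (1SA) and 7616.5 on YAP (2SA), and differed from WT by 0.13 and -0.12, both within the spot limit of 0.15. The dimmer one, with 10 spots, had a mean of 1854, 1673 and 1929, and lay below WT in both mutants, at -0.07 ± 0.03 (SE over 10 spots per array) in YAP (1SA) and -0.08 ± 0.02 in YAP (2SA), both beyond its own spot limit. The probes thus disagreed on the direction in YAP (1SA). By both, Kdr stayed within 0.13 of WT. Flt4 (VEGF receptor 3), a receptor of lymphatic vessels and LSECs, was the dimmest probe of the list, at 55.9 on WT, 57.5 on YAP (1SA) and 77.3 on YAP (2SA). Its differences from WT of 0.12 and 0.33 were within the spot limits of 0.47 and 0.48 for such dim probes, and normexp background correction took the YAP (2SA) value to 0.07.

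The third group held genes of endothelial cell contacts and Oit3. Pecam1 (CD31), an adhesion molecule of all endothelium, was read by 2 spots per array, with a mean intensity of 132 on WT, 116 on YAP (1SA) and 185 on YAP (2SA). It was 0.35 higher in YAP (2SA) than in WT, or 1.27-fold, and differed by -0.11 in YAP (1SA), within its spot limit of 0.15. Between the mutants the difference was 0.45, or 0.29 by normexp. Cdh5 (VE-cadherin), the cadherin of endothelial junctions, had 874, 733 and 976, and its differences of -0.18 in YAP (1SA) and 0.02 in YAP (2SA) were both within the spot limit. Between the mutants its difference of 0.20 lay just inside that limit. Oit3, a secreted zona pellucida-domain protein used as an LSEC marker, had 1483.5, 1361 and 1502. Its differences of -0.05 and -0.12 were within the limit of 0.15 as well, and it had the smallest spread over the 3 livers of the single-spot members.

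**Figure D3:**
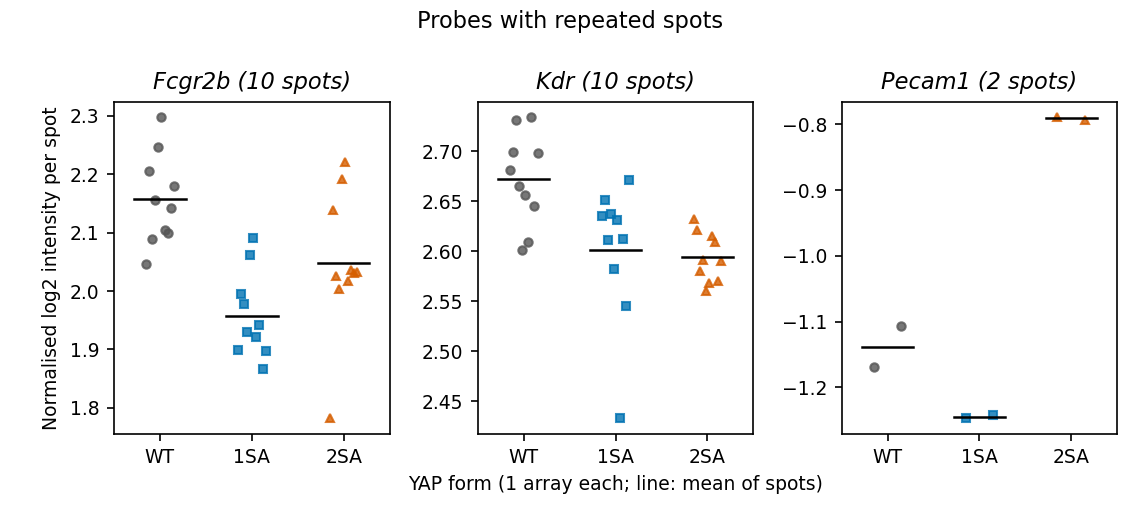
Normalised log2 intensity of every spot of the marker probes with repeated spots, by form of YAP (1 array each); lines are means over spots, each panel has its own axis range, and the Kdr probe is the dimmer one. The 10 Fcgr2b spots centre lower on YAP (1SA) than on WT, the means of the Kdr probe differ from WT by -0.07 and -0.08, and both Pecam1 spots of YAP (2SA) lie above those of WT and YAP (1SA).

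The members did not share 1 direction. In YAP (1SA) 4 were higher and 6 lower than in WT, where 49.7% and 50.3% of all genes were. In YAP (2SA) 5 were higher and 5 lower, where 43.6% and 56.4% were, and between the mutants 6 were higher and 4 lower in YAP (2SA), where 45.6% and 54.4% were. Their median difference was -0.08 in YAP (1SA) and -0.04 in YAP (2SA) against WT, beside -0.0017 and -0.03 over all genes. Between the mutants it was 0.15, or 0.034 by normexp, beside -0.03 over all genes, with members from -0.71 to 0.54. Stab1, Lyve1, Pecam1 and Cdh5 were lower in YAP (1SA) and higher in YAP (2SA) than in WT, an order shared by 2726 of the 13626 genes. Stab2, Clec4g and the brighter Kdr probe had the reverse order, shared by 26.1% of all genes. The dimmer Kdr probe was below WT in both mutants, and the counts given here use the brighter one. Fcgr2b and Oit3 were below WT in both and Flt4 above WT in both. In total 7 of the 10 lay on opposite sides of WT in the mutants, against 46.2% of all genes. In none of the 7 were both differences beyond the spot limit. The share of all genes for which both were was not computed, so that count is not read as a result about the members.

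Other genes of LSECs and of endothelium in general were looked at as lists. Of 25 further LSEC genes, 24 were measured, and 15 were lower in YAP (1SA) and 17 lower in YAP (2SA) than in WT, where 50.3% and 56.4% of all genes were. The medians were -0.07 and -0.10. The list held none past 2-fold against WT. Cyp26b1, which breaks down retinoic acid, had an intensity of 1198 on WT, 745 on YAP (1SA) and 2202 on YAP (2SA), and its differences from WT were -0.61 and 0.74. At 1.35 it was the 1 gene of the list past 2-fold between the mutants. Clec1b, a C-type lectin receptor, was lowest in YAP (2SA) at -0.74, with -0.39 in YAP (1SA). Which liver cells its RNA came from was not tested. Tfec, a transcription factor, was lowest in YAP (1SA) (-0.62, or -0.25 by normexp, at an intensity of 52.4) and Igfbp7, a secreted vessel protein, highest (0.25).

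Genes found in all endothelium were lower in YAP (1SA) in most cases. Of 20 listed, 19 were measured, Clec14a being left out for a flagged spot on the YAP (2SA) array, and 18 of them were lower in YAP (1SA) than in WT, 12 beyond the spot limit, where 50.3% and 17.2% of all genes were, with a median of -0.26. The difference between this list and the LSEC markers was not tested, and the LSEC markers themselves hold Pecam1 and Cdh5, genes of endothelium in general. Nos3, endothelial nitric oxide synthase, was the exception at 0.13. Sox17, a transcription factor of arteries, was lowest at -0.92, or -0.52 by normexp. In YAP (2SA) 8 were higher and 11 lower than in WT, where 43.6% and 56.4% of all genes were. The median was -0.08, with values from Eng, a co-receptor for BMP9, at -0.29 to Mmrn2, a protein of the vessel matrix, at 0.56. Between the mutants 15 of the 19 were higher in YAP (2SA), where 45.6% of all genes were, with a median of 0.31, or 0.15 by normexp, and 0 past 2-fold.

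**Figure D4:**
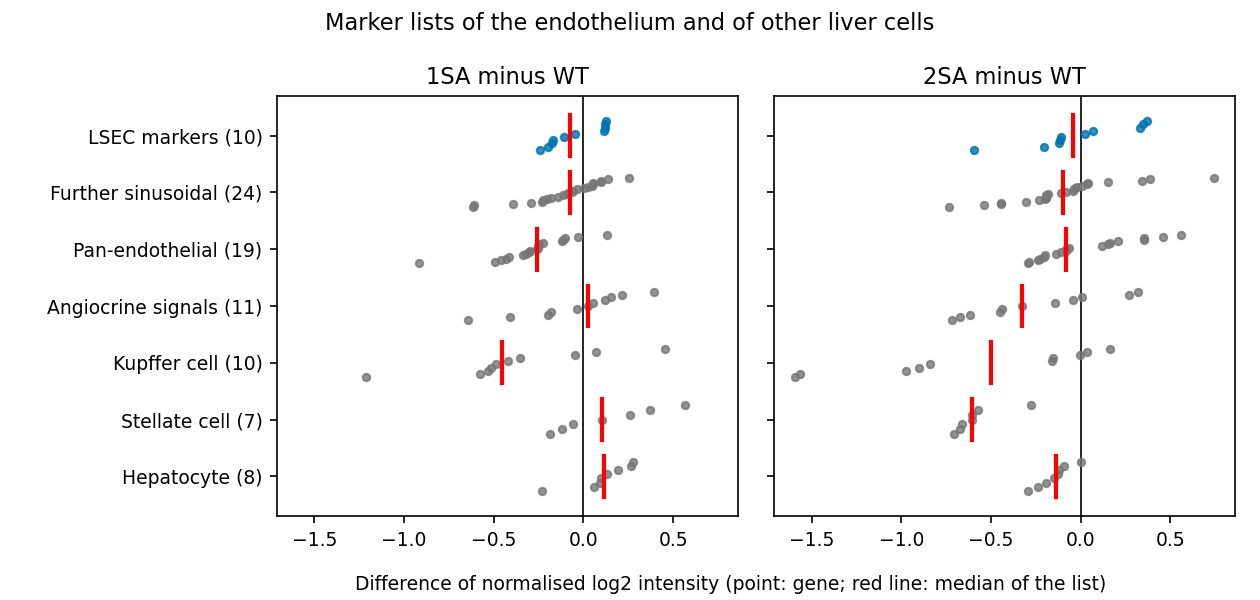
Difference of normalised log2 intensity from WT for the genes of 7 lists in YAP (1SA) and YAP (2SA); points are genes measured on all 3 arrays, their number is in brackets, and red lines are medians. The LSEC marker medians lie near 0 (-0.08 and -0.04), the panendothelial median is -0.26 in YAP (1SA), and the stellate cell median is -0.61 in YAP (2SA).

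The VEGF family was measured in full, with 8 of 8 genes and medians of 0.07 in YAP (1SA) and -0.03 in YAP (2SA). Vegfa, the ligand of Kdr that hepatocytes make, had an intensity of 1964 on WT, 2525 on YAP (1SA) and 1903.5 on YAP (2SA), and was 0.44 above WT in YAP (1SA) and -0.18 from it in YAP (2SA). Nrp2, a co-receptor of VEGF, differed by -0.06 and 0.28. The latter was 0.10 as the mean of its measured probes. The former reached -0.28 over the alternatives, beyond the spot limit of 0.21. Flt1 (VEGF receptor 1) lay within 0.1 of WT in both. None of the VEGF receptors or ligands passed 1.5-fold against WT.

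Angiocrine signals, the factors that endothelium sends to its neighbours, were measured for 11 of 14 genes and had a median of 0.03 in YAP (1SA) and -0.33 in YAP (2SA). In YAP (2SA) 8 were lower and 3 higher than in WT, where 56.4% and 43.6% of all genes were. The YAP (2SA) median was -0.18 by normexp and -0.14 with the stricter filter on dim probes, and the YAP (1SA) median was -0.11 with no filter. Dll4, a Notch ligand, was lowest at -0.72, with intensities of 147 on WT, 136 on YAP (1SA) and 98.5 on YAP (2SA). Pdgfb, which recruits mural cells, was highest in YAP (2SA) (0.32) and lowest in YAP (1SA) (-0.65), while Angpt1, the ligand of Tie2, was highest in YAP (1SA) (0.40, or 0.11 by normexp) at an intensity of 22.1. Some of these genes are also expressed by other liver cells. Of the transcription factors, 11 of 14 were measured, with medians of -0.14 and 0.02. Hhex, a homeobox factor that hepatocytes express as well, had intensities of 8874, 8015 and 3868 and was at least 2-fold lower in YAP (2SA) than in WT (-1.33) and than in YAP (1SA) (-1.26). Hey1, a target of Notch, had dim intensities of 63.9, 77.9 and 36.4. It differed by 0.36 in YAP (1SA), -0.95 in YAP (2SA) and -1.31 between the mutants, and by normexp these values were 0.22, -0.47 and -0.68. The ETS factor Fli1 (-0.27 and 0.50) and the LIM-domain protein Lmo2 (-0.53 and 0.06) had higher values in YAP (2SA) than in YAP (1SA). By normexp the YAP (1SA) value of Fli1 was -0.14, within the spot limit of 0.21.

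Genes of capillarised, continuous or injured endothelium were measured for 12 of 14 and had medians of -0.17 and -0.12. Ackr3, a scavenger of the chemokine CXCL12, was at least 2-fold lower in YAP (1SA) than in WT (-1.30), at intensities of 81.2 and 31.3, and Cxcr4, a receptor for the same chemokine, was higher (0.77), at 32.9 and 53.1. Both were dim, and normexp reduced the differences to -0.53 and 0.29. Cd34, a sialomucin of continuous endothelium named after its values were seen, was brighter, at 579 on WT, 284 on YAP (1SA) and 583 on YAP (2SA). It was beyond its spot limit in YAP (1SA) (-0.95) and within it in YAP (2SA) (-0.13). Vcam1, an adhesion molecule also carried by macrophages, was lower in both mutants (-0.57 and -0.75), and Esm1, a proteoglycan of activated endothelium, was higher in both (0.25 and 0.45). Genes of the central or portal side of the vessel tree were measured for 13 of 14, with medians of -0.16 and -0.07. Gja5, the connexin of arteries, was lowest in YAP (1SA) (-0.87) and Adgrg6, an adhesion G protein-coupled receptor, highest (0.49), both of them dim, with -0.32 and 0.18 by normexp. Dll4 (-0.72) was also the lowest of this list in YAP (2SA), while Msr1, a scavenger receptor shared with macrophages, was highest in YAP (2SA) (0.52). Of the 4 lymphatic genes 2 were measured, Prox1 (-0.01 and -0.37), which hepatocytes express too, and Pdpn, podoplanin (-1.02 and -0.28, or -0.43 and -0.17 by normexp).

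RNA came from whole liver, so fewer cells of a type and less RNA per cell cannot be told apart. All 8 hepatocyte markers were well above background on all arrays, as liver tissue has them. Markers of other cells differed between the arrays too, and their part in the endothelial values was not tested. Of the members, Lyve1, Stab1 and Fcgr2b are also carried by macrophages. Kupffer cell genes, those of the resident macrophages, were measured for 10 of 10. In each mutant 8 were lower than WT, where 50.3% of all genes were in YAP (1SA) and 56.4% in YAP (2SA). Their medians were -0.46 and -0.50. The latter was -0.16 with the stricter filter on dim probes, as it fell in a gap between genes near WT and genes well below it. Their summed scaled intensity was 293 times the 75th percentile on WT, 218 on YAP (1SA) and 192 on YAP (2SA). Such a sum adds unlike probes and follows the brightest, here Cd5l (11544% of the 75th percentile on WT and 6442% on YAP (2SA)). The sum of the 10 LSEC markers was 88.8, 92.3 and 75.6. Stellate cell genes, measured for 7 of 8, were lower than WT in YAP (2SA) for 7 of 7, where 56.4% of all genes were. Their median was -0.61, beside -0.04 over the 10 LSEC markers. The sum of the stellate cell genes was 43.3, 44.6 and 28.02. The Kupffer cell genes were uneven. The lectin Clec4f was highest in YAP (1SA), at 0.45, with -1.56 in YAP (2SA). The complement gene C1qa was highest in YAP (2SA), at 0.16, with -0.52 in YAP (1SA). Marco was the lowest of the 10 in both, at -1.21 in YAP (1SA) and -1.59 in YAP (2SA). Hepatocyte genes had medians of 0.11 and -0.14 and cholangiocyte genes, measured for 5 of 5, of -0.82 and -0.06. The cholangiocyte median in YAP (1SA) was -0.17 by normexp and -1.73 with the stricter filter. B cell genes, which bear on Fcgr2b, were measured for 3 of 4, with Cd79a not well above background, and their sum was 1.03, 1.09 and 1.16. Of 4 red blood cell genes 2 were measured, with medians of 0.67 and 0.27, and of 4 platelet genes also 2, with medians of -0.27 and 0.41.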

How the data were processed

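Total RNA of 3 livers was hybridised by the authors to 1-colour Agilent SurePrint G3 mouse arrays on 1 slide. The deposited intensity of a spot was background-subtracted and detrended within its array by Feature Extraction 10.10.1.1 per the file headers (design build mm9), and was not scaled between arrays. The series matrix held the same intensity times 1 constant per array (3.02, 3.08 and 2.81), of unstated source.

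Non-control spots without outlier flags were used (148 to 182 flagged per array, 0 saturated). Spots of a probe were averaged as log2 values, from which each array's own 75th percentile on that scale (intensity 276 to 319) was taken off. A probe was measured where 50% of its spots were well above background (28972 to 30784 probes per array). RefSeq accessions named 26762 of 55681 probes (GRCm38.p6, names only), and a gene was its brightest probe measured on all 3 arrays. The number of arrays limits the precision. The spot limit is 2 times the SD of a difference expected from repeated spots of like intensity, or from a probe's own spots where it had at least 5. Thresholds were 1.5-fold and 2-fold. The members and lists were chosen with earlier results of these data known, so medians and counts are descriptions. From each list of endothelial genes, the genes highest and lowest against WT in each mutant, and all past 2-fold in any comparison, were named, and others only where a sentence needed them.

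Alternatives tried were normexp on median spot and local background signal (offset 50), the array median as scale, quantile normalisation, values of the series matrix, no filter or a stricter one on dim probes, averaging a gene's measured probes, and keeping flagged spots. Normexp added its offset to every spot, which by itself shrinks the log2 differences of dim probes. Smaller normexp values of dim genes are therefore no independent check on the difference. The steps were tested on simulated data. Python 3.11.15, pandas 2.3.3, numpy 2.4.6, matplotlib 3.10.9, R 4.3.3 and limma 3.58.1 (normexp) were used.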

Additional observations from a re-analysis of the deposited data

Results flagged for a closer look

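None of the 10 LSEC markers, and 5 of the other named genes, lay on opposite sides of WT in the mutants with both differences beyond the spot limit, among 36 genes looked at. The other named genes had been picked for high or low differences, so these counts cannot be set against each other. Unnamed genes of the lists, such as Cldn5 (-0.46 and 0.46), lay so too. The share over all genes was not computed, so the member count is not read as a result about the LSEC markers. Between YAP (2SA) and YAP (1SA) the difference was 1.35 for Cyp26b1, 0.96 for Pdgfb, 0.85 for Mmrn2, 0.77 for Fli1 and -0.62 for Vegfa. By normexp the YAP (1SA) value of Fli1 against WT was -0.14, within the spot limit, while its difference between the mutants was 0.57. With 1 array per form the difference between the mutants was not tested.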

How the results depend on the processing

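No paired analysis of livers was possible because only a single array stood for each form of YAP. Over 8 alternatives, 234 values of member differences were recomputed, and 232 kept their sign. The exceptions were Flt4 between the mutants with normexp (-0.02) and Oit3 between the mutants with the series matrix (0.0056), both within the spot limit in the report. Of the 234, 215 moved by less than the SD expected from spots. Many of the 234 could not move at all. The filters and keeping flagged spots returned the same value for every member they kept, and averaging probes could alter Kdr only. Both counts therefore overstate how stable the values were. The median over members between the mutants was 0.034 with normexp and 0.0097 with the stricter filter, which kept 8 members and left out Flt4 and Pecam1, so that 3 were higher in YAP (2SA) than in WT. The count of members at least 1.5-fold lower in YAP (2SA) than in WT was 0 with normexp, the array median, the series matrix and quantile normalisation. With the series matrix 1 member, Lyve1, was at least 1.5-fold higher in YAP (2SA) than in YAP (1SA) (0.62). Vcam1 between the mutants was 0.051 with the mean of all measured probes, and the platelet median between the mutants was -0.043 with no filter, which added dim genes. Other causes were not tested. Among other list medians that moved by over 1.5 times were, in YAP (2SA), 0.12 for central or portal genes, -0.14 for the VEGF family, -0.31 for cholangiocyte and 0.96 for platelet genes with the stricter filter. With no filter the red blood cell medians were 0.43 and 0.09. Counts over all genes also varied, partly because the filters left 8575 to 20266 genes in place of 13626. Genes past 1.5-fold numbered 419 higher and 637 lower in YAP (1SA) than in WT, with ranges over the alternatives of 189 to 1259 and 235 to 1678. They numbered 516 and 411 in YAP (2SA) against WT (210 to 1333 and 119 to 1465) and 953 and 622 between the mutants (407 to 1839 and 265 to 1610). Genes past 2-fold numbered 99 and 155 (45 to 553 and 48 to 788), 153 and 74 (59 to 584 and 22 to 723) and 337 and 153 (147 to 839 and 54 to 685). Every scaling moved the median of all genes by less than 0.1.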
